A study of Mus musculus with 10 samples.

Results

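The proteasome is the large protease that takes apart proteins marked with ubiquitin. Its 20S core is a barrel of 4 rings, with alpha subunits in the outer rings and beta subunits in the inner ones, and 3 of the beta subunits cut peptide bonds. The 19S regulatory particle caps the barrel: a base with a ring of ATPases unfolds the substrate, and a lid removes the ubiquitin. In brown fat, the heat-producing fat depot, the transcription factor Nfe2l1 is known for maintaining proteasome gene expression during adaptation to cold and obesity.

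The genes described here are those whose symbol is Psma, Psmb, Psmc or Psmd followed by a number, with the 3 interferon-inducible immunoproteasome genes Psmb8, Psmb9 and Psmb10 set aside. There were 36 such genes among the 32889 genes of the expression table: 16 of the 20S core, 17 of the 19S regulatory particle and 3 chaperones that help to assemble the 19S base. RNA of brown adipose tissue from wild-type C57BL/6J mice was sequenced in 10 libraries. There were 3 obesity-prone and 3 obesity-resistant libraries from mice fed a high-fat diet, and 4 control libraries from mice on regular chow. The age and sex of the mice, the time on the diet and the way in which prone and resistant mice were told apart are not given in the sources used here. The labels do not state whether the libraries of a group were made from different animals, so the tests measure the spread between these samples, which may be technical.

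The libraries held between 35583997 and 37327770 counts, of which the 36 genes took between 0.145% and 0.189%. The brown adipocyte marker Ucp1 was abundant in all 10 libraries, from 2882 CPM (read counts relative to the TMM-scaled library size) in obesity-prone replicate 3 to 10271 CPM in control replicate 4. Libraries also differed in other tissues' markers, whose part in the results below was not tested. None of these markers was at 0 in all libraries. The 8 brown adipocyte markers summed to between 3976 and 11249 CPM in obesity-prone libraries, between 11825 and 12952 CPM in obesity-resistant libraries and between 8914 and 12754 CPM in control libraries. The 10 macrophage markers summed to between 203 and 568 CPM in obesity-prone libraries, between 143 and 171.0 CPM in obesity-resistant libraries and between 144 and 247 CPM in control libraries. The 7 erythrocyte markers ran from 2418 to 22214 CPM in obesity-prone libraries, from 708 to 2548 CPM in obesity-resistant libraries and from 822 to 6160 CPM in control libraries. The 10 skeletal muscle markers ran from 1.55 to 71.4 CPM in obesity-prone libraries, from 2.81 to 716 CPM in obesity-resistant libraries and from 1.10 to 847 CPM in control libraries. Sums for the 5 white adipocyte markers found were 134 to 877 CPM in obesity-prone libraries, 84.1 to 148 CPM in obesity-resistant libraries and 119 to 207 CPM in control libraries. The 5 T and NK cell markers stayed between 0.932 and 3.21 CPM throughout.

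All but 2 of the genes were detected well enough to be tested, 34 of 36, by a filter that needs about 10 counts in as many libraries as the smallest group has. Psma8, the alpha subunit of the spermatogenic proteasome, had 5, 4 and 6 counts in obesity-prone libraries, 3, 3 and 0 counts in obesity-resistant libraries and 1, 2, 2 and 3 counts in control libraries. Psmb11, the catalytic subunit of the thymic proteasome, had between 5.20 and 6.94 counts in obesity-prone libraries, between 2.43 and 5.17 counts in obesity-resistant libraries and between 4 and 7.14 counts in control libraries. Both tissue-specific subunits were thus at or near the limit of detection, and nothing further is reported of them.

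Per unit of transcript length, the 14 tested core genes were present at unequal levels. In control libraries Psmb3, a non-catalytic beta subunit, had the highest level at 87.1 ± 5.03 FPKM (fragments scaled to transcript length and depth; SD, n = 4), and Psma5, of the alpha ring, the lowest of the core at 13.8 ± 1.99 FPKM. Psmb2 and Psmb7 followed Psmb3 at 78.2 ± 3.10 and 75.9 ± 3.46 FPKM, values that lie within each other's SD. The 17 regulatory genes ran from 17.7 ± 2.30 FPKM for Psmd7, a lid subunit, to 69.3 ± 4.92 FPKM for Psmd8, another lid subunit. The 3 assembly chaperones were the least abundant: Psmd5 had 8.46 ± 1.196, Psmd10 3.74 ± 0.0435 and Psmd9 3.56 ± 0.315 FPKM. The median level over the core genes was 44.6 FPKM in obesity-prone, 46.7 FPKM in obesity-resistant and 52.1 FPKM in control libraries. Over the regulatory genes it was 30.1 FPKM in obesity-prone, 28.0 FPKM in obesity-resistant and 28.8 FPKM in control libraries. Such medians over a set of genes are not changes per gene. Gene by gene, the median log2 fold change of the regulatory genes in obesity-prone over control libraries was -0.034 on log2(FPKM + 0.5). It was -0.12 on TMM-scaled counts.

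**Figure D1:**
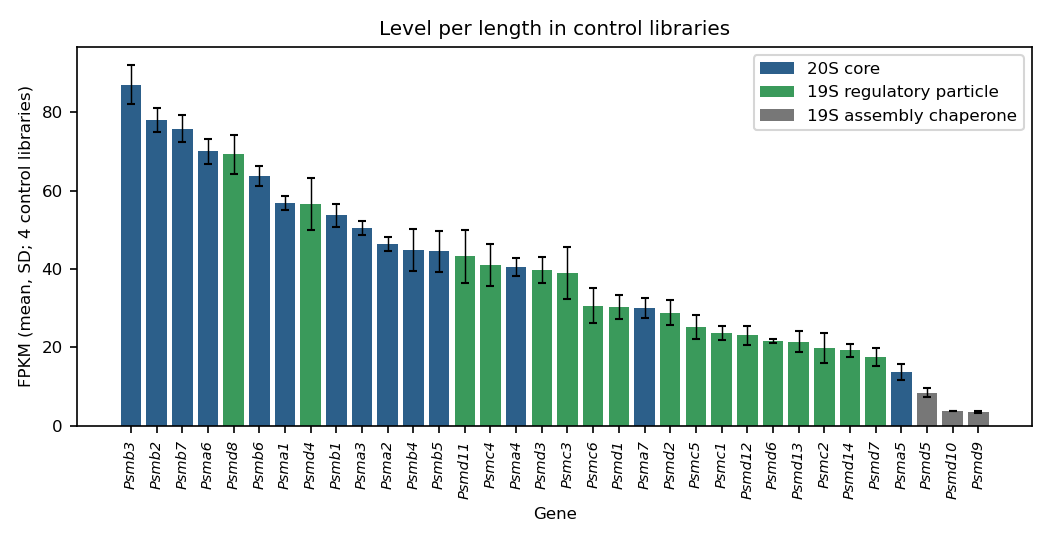
Level per length of the 34 tested genes in the 4 control libraries (bars, mean FPKM; error bars, SD), ordered from high to low and coloured by the part of the proteasome. Psmb3 stands highest at 87.1 FPKM, Psma5 is the lowest core gene at 13.8 FPKM, and the 3 assembly chaperones are below 9 FPKM.

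The first comparison asked how brown fat of obesity-prone mice on a high-fat diet differed from that of chow-fed mice. In obesity-prone libraries 3 of the 34 genes fell, all of them in the 20S core: Psmb1, Psma6 and Psmb3, by 23.2%, 31.9% and 30.4%. None rose. A gene is said to have risen or fallen when edgeR's quasi-likelihood test gave it an adjusted p below 0.05 (Benjamini-Hochberg adjustment, 19676 genes tested). Of all genes tested 7% passed this threshold in either direction, 3.71% higher and 3.29% lower, against 8.82% of the proteasome genes. The share of the proteasome genes that passed was thus close to the background, and the changes were small: 31 of the 34 genes differed by 25% or less. At an unadjusted p below 0.05 there were 14 of the 34 genes, 12 lower and 2 higher, where 28.1% of all genes passed. With libraries scaled by total counts alone, 66.7% of all calls were higher, against 53% with TMM scaling.

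Psma6, one of the alpha subunits that form the gated outer ring, had 51.7, 53.7 and 36.1 CPM in obesity-prone libraries, 47.5, 58.2 and 51.8 CPM in obesity-resistant libraries and 72.8, 70.8, 71.5 and 62.0 CPM in control libraries. All obesity-prone values lay below all control values, and so did the obesity-resistant ones. The log2 fold change of obesity-prone over control was -0.55 (SE 0.14, adjusted p = 0.0432). The other 6 alpha genes, Psma1 to Psma5 and Psma7, did not pass; their log2 fold changes ran from -0.29 for Psma3 (adjusted p = 0.0712) to -0.10 for Psma5 (adjusted p = 0.655).

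Psmb1, a beta subunit without catalytic activity of its own, had 45.4, 46.1 and 40.1 CPM in obesity-prone libraries, 42.6, 48.3 and 43.7 CPM in obesity-resistant libraries and 60.4, 57.6, 59.2 and 51.2 CPM in control libraries. Its lowest control library was thus above every library of both high-fat groups. The log2 fold change was -0.38 (SE 0.09, adjusted p = 0.0368) in obesity-prone over control libraries. Psmb3, likewise non-catalytic, had 47.3, 48.9 and 33.0 CPM in obesity-prone libraries, 47.8, 58.7 and 51.5 CPM in obesity-resistant libraries and 61.2, 58.2, 67.2 and 61.0 CPM in control libraries. The obesity-prone values again lay below the control values, while the highest obesity-resistant value overlapped the lowest control value. Its log2 fold change was -0.52 (SE 0.14, adjusted p = 0.0477). Psmb2, also of the beta ring, had 65.6, 65.8 and 53.6 CPM in obesity-prone, 64.9, 75.0 and 62.9 CPM in obesity-resistant and 76.7, 78.5, 80.5 and 80.9 CPM in control libraries. Both high-fat groups lay wholly below the control libraries, and the log2 fold change of -0.36 (SE 0.10) in obesity-prone over control libraries missed the threshold at an adjusted p of 0.0514. Psmb4, the other non-catalytic gene, had a log2 fold change of -0.23 (adjusted p = 0.281).

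None of the 3 catalytic subunits passed. Psmb6, with caspase-like activity, had 54.0, 55.3 and 44.7 CPM in obesity-prone libraries, 53.7, 63.7 and 54.1 CPM in obesity-resistant libraries and 64.8, 66.3, 64.6 and 65.5 CPM in control libraries. The control values were tightly grouped above the others, and the log2 fold change in obesity-prone libraries was -0.35 (SE 0.10, adjusted p = 0.0550). Psmb7, with trypsin-like activity, had 64.8, 66.6 and 49.6 CPM in obesity-prone, 60.5, 75.8 and 68.1 CPM in obesity-resistant and 68.98, 70.3, 75.3 and 73.2 CPM in control libraries. Obesity-prone and control libraries did not overlap, at a log2 ratio of -0.25 (SE 0.12, adjusted p = 0.181). Psmb5, with chymotrypsin-like activity, had 43.1, 38.7 and 29.8 CPM in obesity-prone libraries, 37.4, 44.5 and 35.8 CPM in obesity-resistant libraries and 33.5, 37.2, 39.2 and 42.2 CPM in control libraries. Its groups overlapped fully and the log2 fold change was -0.03 (SE 0.14, adjusted p = 0.905). Its direction turned with the scaling, to 0.04 with total counts and 0.03 on FPKM.

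**Figure D2:**
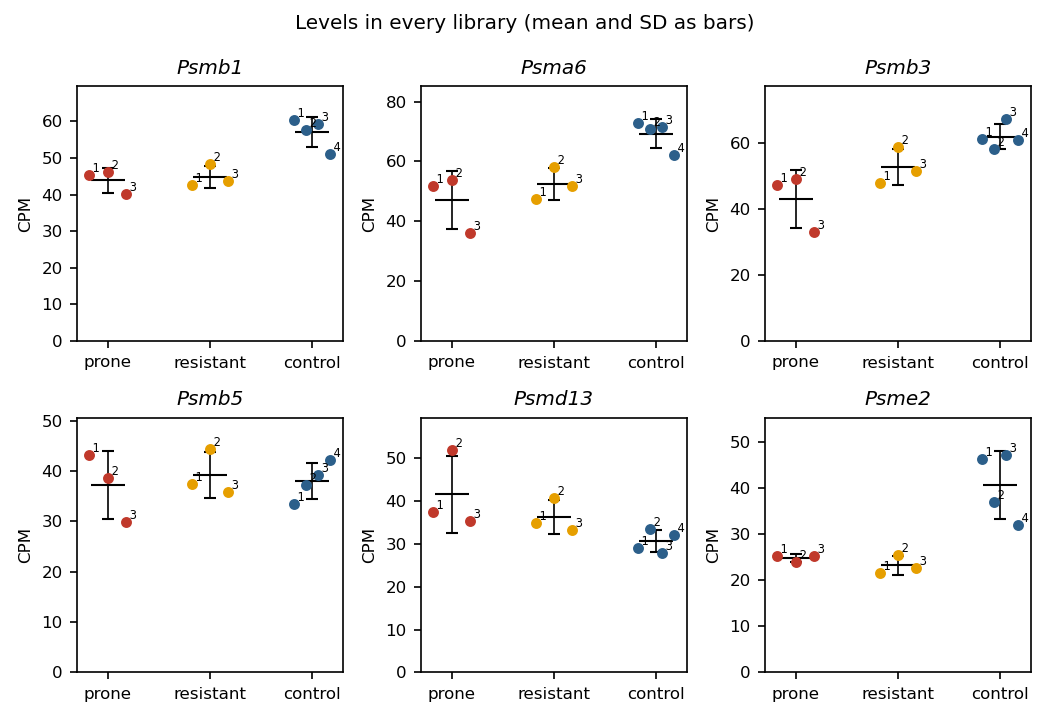
CPM of 5 proteasome genes and of the activator gene Psme2 in each library (points, numbered by replicate) with the mean and SD of each group (bars); obesity-prone on the left, obesity-resistant in the middle, control on the right, each axis from 0. Obesity-prone libraries lie below all control libraries for Psmb1, Psma6, Psmb3 and Psme2 and above all of them for Psmd13, and the groups overlap for Psmb5.

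Over the core as a whole, 14 of the 14 tested genes had a log2 fold change below 0 in obesity-prone over control libraries, or 13 of 14 when scaled by total counts or by FPKM, where Psmb5 turned, or when obesity-prone replicate 3 or control replicate 4 was left out. Among all genes tested 49.4% were below 0. Their median was -0.27, against 0.0047 over all genes tested. Of the 14, 9 showed obesity-prone libraries wholly below control libraries. Over all 34 proteasome genes such a separation was seen in 13 genes lower and 1 higher, or 38.2% lower, where 10.6% of all genes tested were lower and 9.66% higher without overlap. The core genes have short transcripts, with a median length of 978 bases implied by the counts and FPKM values. There were 740 tested genes within the same range of lengths and with at least 10 CPM on average, the core genes among them. Their median log2 fold change was -0.19, against -0.27 over the core. The part of transcript length in the result was not tested. Fewer cells of a type and less RNA per cell cannot be told apart in such bulk tissue.

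The calls were close to the threshold. No gene of the 34 passed when obesity-prone replicate 1 or 3, any obesity-resistant replicate, or control replicate 1, 2 or 3 was left out, when libraries were scaled by total counts, or with limma on log2 FPKM, while 5 passed without obesity-prone replicate 2 (10.8% of all genes), 4 without control replicate 4 (15.6%) and 8 by DESeq2 (16.2%). Over the 10 fits that each left out 1 library, the log2 fold changes ran from -0.43 to -0.32 for Psmb1, from -0.66 to -0.39 for Psma6 and from -0.63 to -0.36 for Psmb3.

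In the 19S regulatory particle none of the 17 genes passed by edgeR's quasi-likelihood test. There were 4 at an unadjusted p below 0.05, 2 higher and 2 lower, where 28.1% of all genes passed. DESeq2, which called 16.2% of all genes, called Psmd13 higher and Psmd14 lower. Of the 17 genes 12 had a log2 fold change below 0, and the median was -0.12. The genes went both ways. Of the 6 base ATPases, the ring that unfolds and feeds the substrate, 5 were below 0, from -0.20 for Psmc4 to -0.10 for Psmc6, and Psmc2 stood at 0.23 (adjusted p = 0.269). The base scaffold genes Psmd1 and Psmd2 had log2 fold changes of -0.12 and 0.00 (adjusted p = 0.455 and 0.990), and Psmd4, a ubiquitin receptor, of -0.05 (adjusted p = 0.804).

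The lid held both the largest positive and a sizeable negative difference of the regulatory particle. Psmd14, the metalloprotease that removes ubiquitin chains from substrates, had 28.4, 28.3 and 25.7 CPM in obesity-prone libraries, 25.2, 28.2 and 26.2 CPM in obesity-resistant libraries and 31.5, 30.8, 34.0 and 34.3 CPM in control libraries. Control libraries were above both high-fat groups without overlap, and the log2 fold change in obesity-prone libraries was -0.25 (SE 0.08, adjusted p = 0.0802). Psmd13, a structural lid subunit, had 37.3, 51.9 and 35.4 CPM in obesity-prone libraries, 34.7, 40.7 and 33.2 CPM in obesity-resistant libraries and 29.0, 33.5, 27.9 and 32.1 CPM in control libraries. It was the only 1 of the 34 genes with obesity-prone libraries wholly above control libraries, at a log2 ratio of 0.44 (SE 0.14, adjusted p = 0.0773), and its value was highest in obesity-prone replicate 2. Psmd7, the lid partner of Psmd14, had 33.8, 34.5 and 31.3 CPM in obesity-prone, 30.3, 32.5 and 29.2 CPM in obesity-resistant and 26.02, 28.0, 27.1 and 32.2 CPM in control libraries. Control replicate 4 reached into the obesity-prone range, and the log2 fold change was 0.23 (SE 0.09, adjusted p = 0.132); without that library Psmd7 passed the threshold at a log2 fold change of 0.30 (adjusted p = 0.0379). Psmd13 and Psmd7 were chosen for description after their values were seen. The other 5 lid genes tested, Psmd3, Psmd6, Psmd8, Psmd11 and Psmd12, had log2 fold changes between -0.22 and 0.15.

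The 3 assembly chaperones did not pass by edgeR's test or by DESeq2. Of the 3, 1 had an unadjusted p below 0.05, Psmd9, where 28.1% of all genes did. Their log2 fold changes in obesity-prone over control libraries were -0.29 for Psmd9 (adjusted p = 0.171), -0.14 for Psmd5 (adjusted p = 0.503) and 0.13 for Psmd10 (adjusted p = 0.488).

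**Figure D3:**
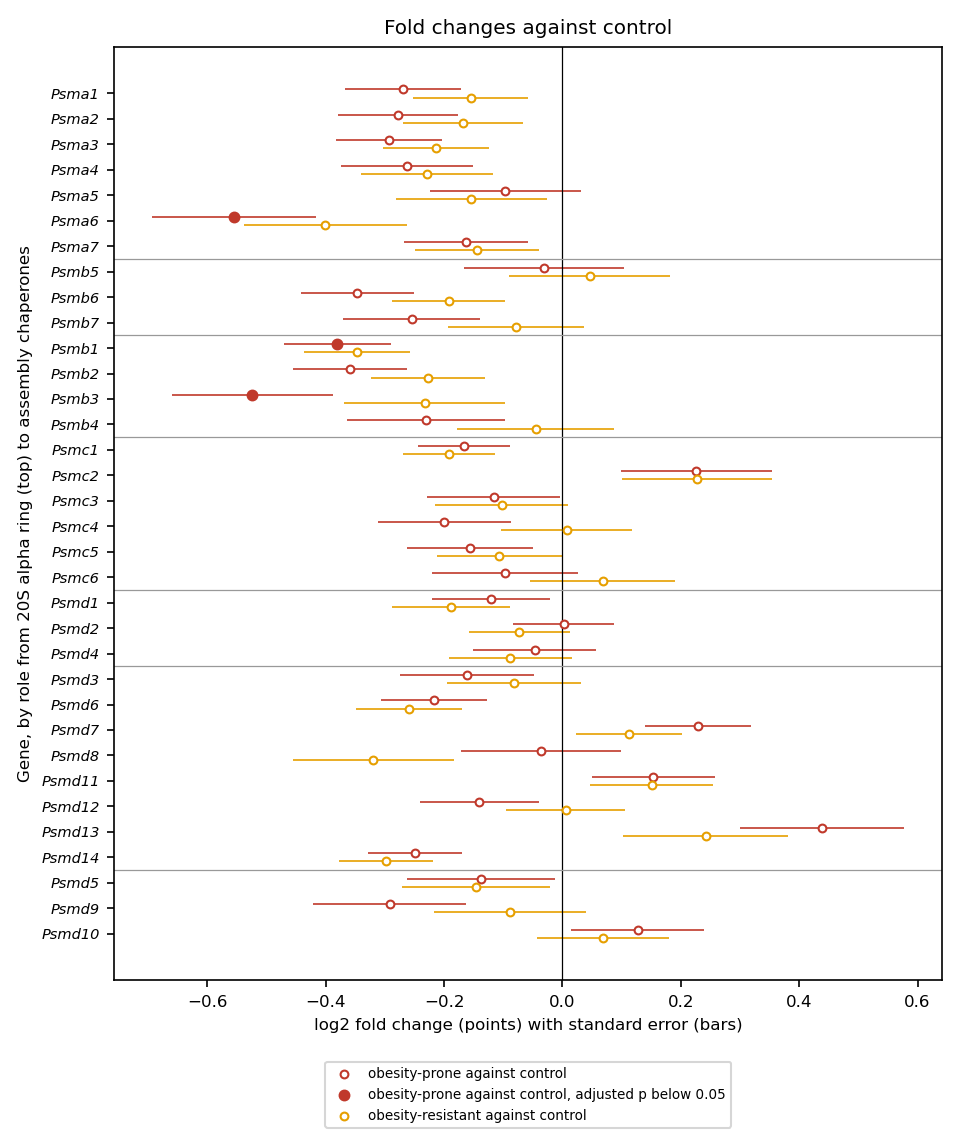
Log2 fold changes of the 34 tested genes in obesity-prone over control (red) and obesity-resistant over control (orange) libraries, with standard errors; filled points passed an adjusted p of 0.05. The 14 core genes at the top lie below 0 in obesity-prone libraries (Psmb5 turned with total counts or FPKM), and Psmd13 has the highest value at 0.44.

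A single library weighed on these values. Obesity-prone replicate 3 had the lowest CPM of the 10 libraries in 23 of the 34 genes, among them 13 of the 14 core genes and 9 of the 17 regulatory genes, while it was lowest in 22.6% of all genes tested. The mean over the core genes of log2 CPM, centred on each gene's mean, was -0.03, -0.05 and -0.38 in obesity-prone replicates 1, 2 and 3. It was -0.14, 0.11 and -0.09 in obesity-resistant libraries and 0.12, 0.13, 0.18 and 0.14 in control libraries. The core mean of every obesity-prone and every obesity-resistant library was thus below the lowest control library, but by little for obesity-resistant replicate 2. The same library had the lowest brown adipocyte and the highest macrophage, erythrocyte and white adipocyte marker means, -1.20, 1.41, 3.35 and 2.04 on the same scale. At the other end, control replicate 4 was the highest library in 14 of the 34 genes.

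Without obesity-prone replicate 3 the median log2 fold change over the core was -0.17 and over the regulatory genes -0.03, with 13 of 14 and 9 of 17 below 0. Without both it and control replicate 4, the core median was -0.21 and the regulatory median 0.0033, and 7 genes passed where 13.3% of all genes did. These were Psma6, Psmb1 and Psmb3 lower, and Psmc2, Psmd7, Psmd11 and Psmd13 higher. These are the libraries that stood lowest and highest in many of the same genes, so that fit depends on the members' own values. Whether the parts of the proteasome differed from each other was not tested.

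**Figure D4:**
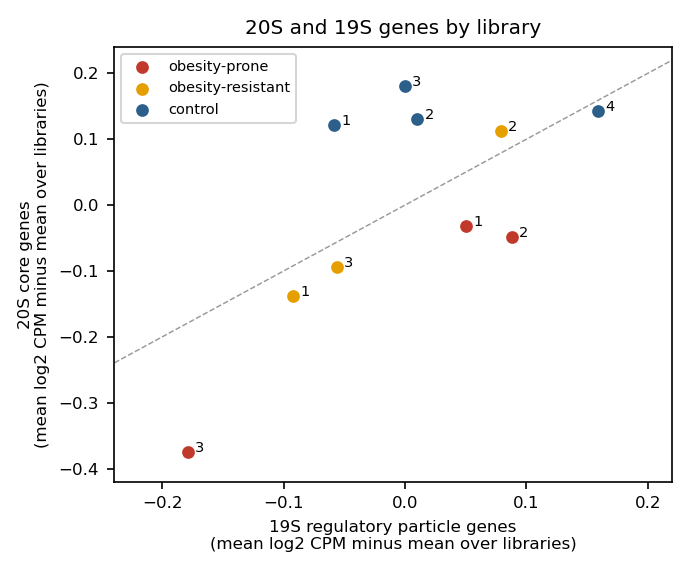
Mean log2 CPM, centred on each gene's mean over libraries, of the 14 core genes (vertical axis) against the 17 regulatory genes (horizontal axis); points are libraries, numbered by replicate, and the dashed line marks equal values. Control replicates 1 to 3 lie above the line, the 3 obesity-prone libraries lie below it, and obesity-prone replicate 3 is lowest on both axes, at -0.38 and -0.18.

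The difference between the core mean and the regulatory mean of a library cancels any scaling factor common to a library, but not a shift that varies with transcript length. It was -0.08, -0.14 and -0.20 in obesity-prone libraries, -0.05, 0.03 and -0.04 in obesity-resistant libraries and 0.18, 0.12, 0.18 and -0.02 in control libraries. Obesity-prone libraries lay below all control libraries on this measure, and control replicate 4 fell among the obesity-resistant libraries. Core transcripts are shorter, with a median implied length of 978 bases against 1563 for the regulatory genes. Tested genes of at least 10 CPM in the core's length range centred on -0.19 (log2, obesity-prone over control). Those in the regulatory range centred on -0.05. The core and regulatory medians were -0.27 and -0.12. The part of length in this gap was not tested.

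**Figure D5:**
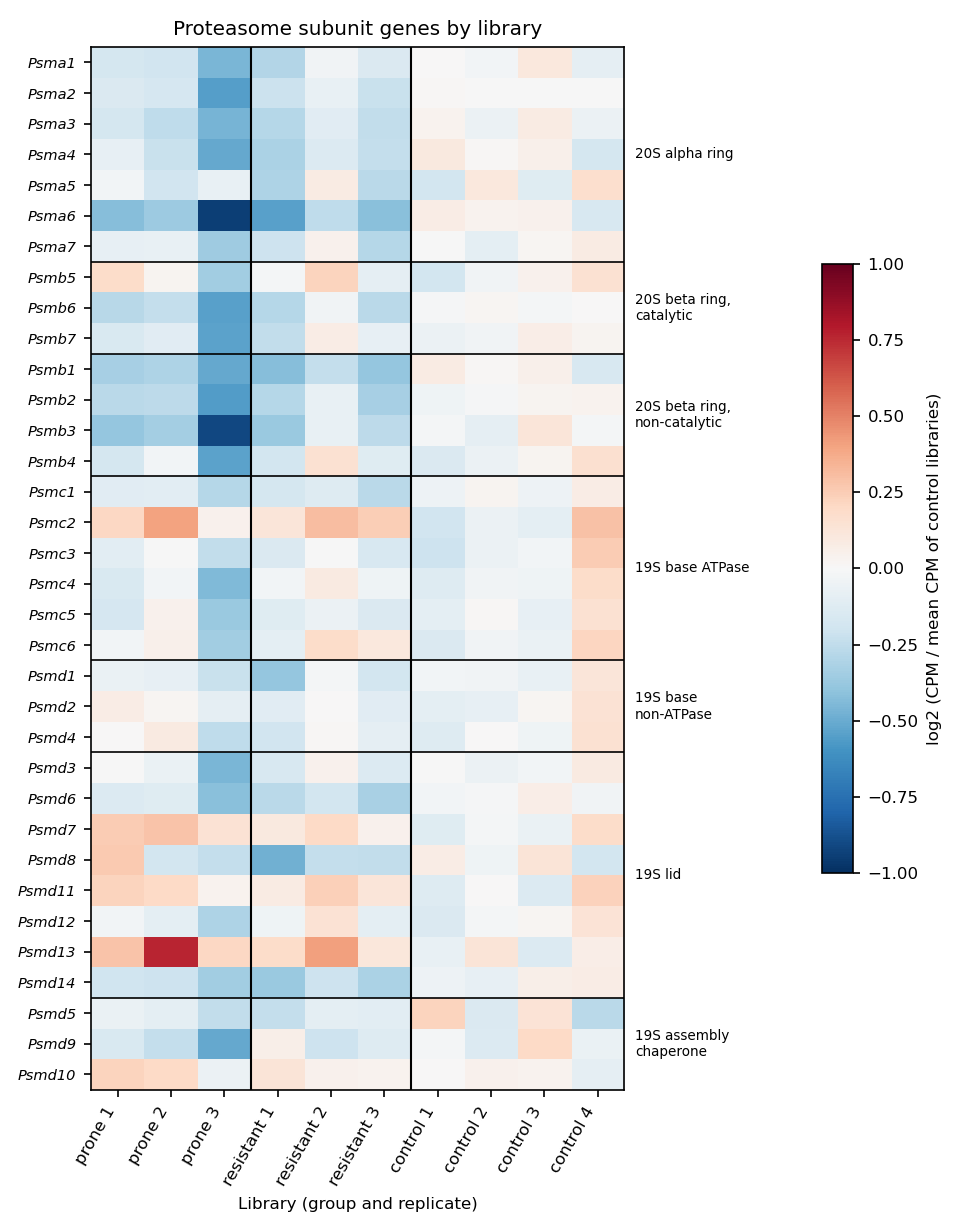
Log2 ratio of each library's CPM to the mean of the 4 control libraries for the 34 tested genes (rows, grouped by role) in the 10 libraries (columns). The core rows at the top are mostly blue in obesity-prone and obesity-resistant libraries, most strongly in obesity-prone replicate 3, and Psmd7, Psmd11, Psmd13 and Psmc2 are red in most high-fat libraries.

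The second comparison set obesity-resistant mice, which received the same high-fat diet, against chow-fed mice. None of the 34 genes passed the threshold, with edgeR's quasi-likelihood test, where 0.142% of all genes did; at an unadjusted p below 0.05 there were 8 genes, all lower (18% of all genes). DESeq2 called 2 genes lower, Psmb1 and Psmd14 (5.78% of all genes), and limma on log2 FPKM called none. With the replicate number as a block, 382 of all genes passed (1.94%), against 28 without it, and again none of the 34. The median log2 fold change was -0.13 over the 34 genes, -0.18 over the core and -0.08 over the regulatory genes, with 13 of 14 and 10 of 17 below 0 (50.9% of all genes). Obesity-resistant libraries lay wholly below control libraries in 10 genes and wholly above in none, or 29.4% lower, where 9.71% of all genes were lower and 10.5% higher without overlap. Genes in the core's range of lengths had a median of -0.11 in this comparison.

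Psmb1, whose values are given above, had the lowest p, with a log2 ratio of -0.35 (SE 0.09, adjusted p = 0.105) in obesity-resistant over control libraries. It passed without control replicate 4 (4.42% of all genes). Psmd14 followed at -0.30 (SE 0.08, adjusted p = 0.110) and Psma6 at -0.40 (SE 0.14, adjusted p = 0.177). Psmd6, a lid subunit, had 23.2, 24.6 and 22.3 CPM in obesity-resistant libraries and 27.5, 27.8, 29.4 and 27.4 CPM in control libraries. These ranges did not overlap, at a log2 ratio of -0.26 (SE 0.09, adjusted p = 0.177). Psmc1, a base ATPase, had 32.2, 33.4 and 30.2 CPM in obesity-resistant libraries and 35.2, 37.3, 35.1 and 38.3 CPM in control libraries. Its log2 fold change was -0.19 (SE 0.08, adjusted p = 0.236). Among the catalytic subunits the log2 fold changes were -0.19 for Psmb6, -0.08 for Psmb7 and 0.05 for Psmb5 (adjusted p = 0.320, 0.766 and 0.896). Psmd13 and Psmd7 stood at 0.24 and 0.11 (adjusted p = 0.392 and 0.547). Both comparisons use the same 4 control libraries, so that a control library that is high or low moves both sets of values.

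The third comparison set obesity-prone against obesity-resistant mice, all on the high-fat diet, and found no difference that passed. None of the 34 genes and none of all genes tested (0%) passed by edgeR's quasi-likelihood test; at an unadjusted p below 0.05 there was none of the 34, where 15.4% of all genes passed, and DESeq2 also called 0 of them, though it called 544 of all genes (3.11%). The median log2 fold change was -0.03 over the 34 genes, -0.11 over the core and 0.02 over the regulatory genes, and 21 of the 34 were below 0 (51.1% of all genes). The median over the 34 turned to 0.05 without obesity-prone replicate 3 and to 0.02 without obesity-resistant replicate 2. No proteasome gene separated the groups without overlap, where 9.99% of all genes were higher and 9.75% lower.

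The lowest p was that of Psmb3, at a log2 ratio of -0.29 (SE 0.14, adjusted p = 0.362) in obesity-prone over obesity-resistant libraries. Psmd8, a lid subunit, had 126.9, 92.8 and 89.5 CPM in obesity-prone libraries and 75.5, 89.6 and 88.8 CPM in obesity-resistant libraries, a log2 ratio of 0.28 (SE 0.14, adjusted p = 0.371). Obesity-prone replicate 1 alone was well above the others. Psmc4, a base ATPase, had 53.0, 57.8 and 43.5 CPM in obesity-prone libraries and 57.8, 62.9 and 57.3 CPM in obesity-resistant libraries, a log2 ratio of -0.21 (SE 0.12, adjusted p = 0.423). Psmd9 had 8.46, 7.94 and 6.58 CPM in obesity-prone libraries and 9.79, 8.11 and 8.55 CPM in obesity-resistant libraries, a log2 ratio of -0.20 (SE 0.14, adjusted p = 0.488). The remaining catalytic and deubiquitinating genes had log2 fold changes of -0.15 for Psmb6, -0.18 for Psmb7, -0.08 for Psmb5 and 0.05 for Psmd14. For the non-passing genes of this comparison the standard errors, 0.08 to 0.15, set the size of difference that 3 libraries against 3 could show.

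Within groups the median proteasome gene varied less than the median gene tested. The median within-group SD of log2 CPM was 0.136 over the 34 genes, against 0.256 over all genes tested. Genes of a similar level were not compared, and no correlation over all genes was computed beside those below. After each library's group mean was taken off, the median correlation between pairs of genes over the 10 libraries was 0.65 over all 561 pairs. It was 0.81 within the core, 0.74 within the regulatory particle and 0.60 between core and regulatory genes. These correlations are a description: the 10 libraries share their depth and tissue makeup across all genes, and obesity-prone replicate 3 enters every pair. Psmb2 followed the mean of the other genes most closely (r = 0.97), then Psmd3 and Psmb7 (0.96 each). Psmd5, Psmd9 and Psma5 followed it least, with r = 0.13, 0.30 and 0.35, and the called gene Psmb1 also stood low at 0.54.

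The promoters of genes that move together are of interest for shared motifs. Windows of 250 bases upstream of the annotated start were available for 28 of the 34 tested genes, from RefSeq on GRCm38.p6. The windows of the called genes Psma6 and Psmb3 and of Psmd13, the gene with the largest positive difference, are shown 5′ to 3′ on the gene's strand. Psma6 has 2 annotated starts in the table and so 2 windows, and Psmb1 is named only. Capitals mark CCAAT, the letters bound by the factor NF-Y, on either strand, so that ATTGG in capitals is CCAAT on the other strand.
Psma6, first start, chr12:55383972-55384221, plus strand: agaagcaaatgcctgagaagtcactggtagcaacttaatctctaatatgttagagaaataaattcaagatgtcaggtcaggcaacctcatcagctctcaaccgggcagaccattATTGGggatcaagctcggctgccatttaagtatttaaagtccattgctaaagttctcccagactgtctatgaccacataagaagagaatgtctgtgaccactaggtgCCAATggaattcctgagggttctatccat
Psma6, second start, chr12:55398575-55398824, plus strand: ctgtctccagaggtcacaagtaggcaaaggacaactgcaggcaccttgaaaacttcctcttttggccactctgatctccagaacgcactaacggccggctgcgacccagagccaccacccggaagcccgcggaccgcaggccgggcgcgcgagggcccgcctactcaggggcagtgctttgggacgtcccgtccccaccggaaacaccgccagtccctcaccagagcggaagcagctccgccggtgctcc
Psmb3, chr11:97703184-97703433, plus strand: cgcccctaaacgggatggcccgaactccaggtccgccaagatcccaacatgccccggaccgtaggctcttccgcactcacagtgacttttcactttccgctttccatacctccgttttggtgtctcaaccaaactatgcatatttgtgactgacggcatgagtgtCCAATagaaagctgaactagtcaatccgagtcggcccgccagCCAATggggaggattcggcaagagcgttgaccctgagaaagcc
Psmd13, chr7:140882144-140882393, plus strand: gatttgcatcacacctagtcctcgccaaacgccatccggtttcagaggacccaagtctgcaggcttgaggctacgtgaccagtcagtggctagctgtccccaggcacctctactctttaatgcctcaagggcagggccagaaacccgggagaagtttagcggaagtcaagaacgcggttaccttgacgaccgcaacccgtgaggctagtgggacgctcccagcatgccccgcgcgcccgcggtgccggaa

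CCAAT occurred 2 times in the first Psma6 window and 2 times in the Psmb3 window, and not in the other 2 windows. Over both strands it was found in 11 of the 28 genes (39.3%), 6 of 11 core and 4 of 14 regulatory genes, against 37.5% of the 27025 genes with a window. The letters TGACNNNGC, a core of the antioxidant response element bound by the Nfe2l1 and Nfe2l2 family with small Maf partners, were found in 5 of the 28 (17.9%) and in 11.5% of all genes. GAANNTTC, a part of the heat shock element, was in 1 of the 28 (3.57%) and in 7.73% of all genes. The motifs do not overlap one another in the windows shown, which hold only CCAAT. The letters are a description of these windows and do not show that a factor binds there.

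Several proteasome genes share sequence with neighbours or copies. All 36 genes matched RefSeq, on 16 chromosomes. Exons of 8 of them overlap exons of a gene on the opposite strand in the GENCODE annotation. No strand setting is stated, so reads from the shared bases may not be told apart. Among the 8 genes, Psmd13 shares 10.1% of its exon bases with Sirt3, Psmb7 shares 11.8% with Nek6 and Psmd9 shares 25.5% with Gm26745. Psma5, Psmb5, Psmb6 and Psmb7 have 6 named pseudogenes between them, none of which has a row of its own in the expression table under that name, so their values are less certain. Psma6, Psmb1 and Psmb3 have neither an overlap on the opposite strand nor a named pseudogene.

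Of the other genes of the pathway, the subunits of the PA28 activator fell in obesity-prone against control libraries. PA28 is a ring that opens the core's gate and is known to be induced by interferon. Psme2 had 25.3, 23.9 and 25.2 CPM in obesity-prone libraries, 21.5, 25.5 and 22.7 CPM in obesity-resistant libraries and 46.4, 37.0, 47.2 and 32.1 CPM in control libraries. The log2 fold change was -0.71 (SE 0.14, adjusted p = 0.0221) in obesity-prone and -0.81 (SE 0.14, adjusted p = 0.0532) in obesity-resistant libraries against control. Psme1 had 26.2, 19.1 and 25.6 CPM in obesity-prone libraries, 19.8, 25.2 and 22.6 CPM in obesity-resistant libraries and 46.6, 39.4, 34.5 and 28.9 CPM in control libraries. Its log2 fold changes were -0.66 (SE 0.17, adjusted p = 0.0482) and -0.73 (SE 0.17, adjusted p = 0.0941). The Psme2 call was lost without obesity-prone replicate 1 or control replicate 1 or 3, and that of Psme1 without any library but control replicate 4. The other activators on the list, Psme3 and Psme4, had log2 fold changes of 0.03 and 0.09 in obesity-prone over control libraries and did not pass.

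The immunoproteasome subunits replace the 3 catalytic ones where interferon acts. Psmb8 had at most 6.96 counts in any library and was at 0 in 6 of 10, too low to be tested. Psmb9 had 1.73, 0.408 and 0.816 CPM in obesity-prone libraries, 0.89, 0.913 and 0.466 CPM in obesity-resistant libraries and 1.45, 1.25, 0.314 and 1.45 CPM in control libraries. Psmb10 had 13.7, 8.84 and 13.2 CPM in obesity-prone libraries, 8.06, 11.8 and 10.1 CPM in obesity-resistant libraries and 10.4, 12.1, 10.6 and 14.7 CPM in control libraries. Groups overlapped for both, and neither passed in any comparison (adjusted p between 0.515 and 0.987).

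The list of proteasome assembly factors and inhibitors, which also holds Ecpas and Txnl1, had 9 tested genes. None of them passed edgeR's test in obesity-prone against control libraries. Obesity-prone libraries lay wholly below control libraries in 3 of them and wholly above in 1 (10.6% and 9.66% of all genes). At an unadjusted p below 0.05 there were 4 of them, 1 higher and 3 lower, where 28.1% of all genes passed. DESeq2, which called 16.2% of all genes in this comparison, called Pomp and Psmg4 lower and Akirin2 higher. In obesity-prone against control libraries none of the 12 ubiquitin receptors, shuttles and deubiquitinases passed in either tool (1 at an unadjusted p below 0.05). None of the 12 genes for ubiquitin and its activation passed edgeR's test (4 at an unadjusted p below 0.05), while DESeq2 called Ubb and Uba6 higher (16.2% of all genes called). Among 12 genes of the p97 segregase, which pulls ubiquitin-marked proteins from membranes and complexes, 1 fell, where 3.29% of all genes did. This was Ufd1, a p97 cofactor, with 38.2, 41.5 and 33.9 CPM in obesity-prone libraries. It had 37.6, 41.9 and 38.4 CPM in obesity-resistant and 53.0, 46.4, 53.9 and 48.8 CPM in control libraries. Its log2 fold change in obesity-prone over control libraries was -0.42 (SE 0.09, adjusted p = 0.0314), and the call was lost without obesity-prone replicate 1 or 3, any obesity-resistant replicate, or control replicate 1, 2 or 3.

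The genes that regulate proteasome transcription moved both ways in obesity-prone against control libraries, 4 higher and 1 lower of 16 (3.71% and 3.29% of all genes). Nfe2l1 itself had 795, 741 and 600.3 CPM in obesity-prone libraries, 593, 713 and 691 CPM in obesity-resistant libraries and 574, 598, 531 and 639 CPM in control libraries. The groups overlapped, at a log2 ratio of 0.28 (SE 0.13, adjusted p = 0.187) in obesity-prone over control libraries. Ngly1, the glycanase that is needed to activate Nfe2l1, fell to 39.9, 38.5 and 32.8 CPM in obesity-prone libraries, against 51.0, 49.2, 56.4 and 52.7 CPM in control libraries. The log2 fold change was -0.50 (SE 0.09, adjusted p = 0.0207). The small Maf genes, whose products pair with Nfe2l1 on DNA, rose. Mafg had 69.8, 78.8 and 71.4 CPM in obesity-prone libraries and 38.0, 44.1, 38.4 and 58.6 CPM in control libraries, a log2 ratio of 0.71 (SE 0.14, adjusted p = 0.0239). Mafk had 23.8, 22.1 and 32.0 CPM in obesity-prone libraries and 11.8, 15.4, 12.5 and 17.99 CPM in control libraries, a log2 ratio of 0.85 (SE 0.17, adjusted p = 0.0239). For all 3 genes the obesity-prone and control libraries did not overlap, where 10.6% of all genes were lower and 9.66% higher without overlap. Maff and Nfya, named after their values were seen, also rose (0.87 and 0.41 on the log2 scale, adjusted p = 0.0369 and 0.0460). DESeq2 called Ngly1, Mafg, Mafk, Maff and Nfya too, and also Sel1l higher and Nfe2l2 lower (16.2% of all genes). With limma on log2(FPKM + 0.5) Nfya was not called. Nfe2l1 did not pass in 22 of the 23 alternative fits listed below. The calls of Ngly1, Mafg and Mafk were lost without control replicate 1 or 3, those of Mafg and Mafk without control replicate 2, that of Mafg without obesity-prone replicate 1 and that of Mafk without obesity-prone replicate 3.

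Heat shock chaperones, which handle misfolded proteins ahead of the proteasome, showed far larger differences than the proteasome genes. In obesity-prone against control libraries 11 of 16 rose and none fell, where 3.71% of all genes rose and 3.29% fell. The median log2 fold change of the 16 was 1.52. In obesity-resistant against control libraries none passed edgeR's test, where the smallest adjusted p was 0.0546, and the median was 1.42. DESeq2 called 12 of the 16 higher in that comparison, where it called 5.78% of all genes. Hspb8 had 95.0, 166.5 and 119.7 CPM in obesity-prone libraries, 122.0, 104.5 and 110.6 CPM in obesity-resistant libraries and 33.4, 37.0, 35.1 and 65.1 CPM in control libraries. All high-fat libraries were above all control libraries, and the log2 fold change in obesity-prone libraries was 1.58 (SE 0.25, adjusted p = 0.0142). Dnajb1 had 65.1, 196.7 and 96.8 CPM in obesity-prone libraries and 24.8, 40.3, 22.6 and 35.9 CPM in control libraries, a log2 ratio of 1.95 (SE 0.33, adjusted p = 0.0177). Hspb1 had 103.6, 464 and 167 CPM in obesity-prone libraries and 33.2, 59.1, 36.6 and 51.5 CPM in control libraries, a log2 ratio of 2.44 (SE 0.44, adjusted p = 0.0205). Obesity-prone replicate 2 was the highest library for all 3. The 3 calls were lost without control replicate 3, and those of Dnajb1 and Hspb1 also without control replicate 1.

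No gene of these 7 pathway lists passed edgeR's test in obesity-resistant against control or in obesity-prone against obesity-resistant libraries. At an unadjusted p below 0.05 in obesity-resistant against control libraries there were 14 of the 16 heat shock genes, 4 of 16 regulators, 2 of 6 immunoproteasome and activator genes, 2 of 9 assembly factors, 2 of 12 p97 genes, 1 of 12 receptors and shuttles and 0 of 12 ubiquitin genes, where 18% of all genes passed. In obesity-prone against obesity-resistant libraries there were 3 regulators, 2 assembly factors, 1 heat shock gene and 0 genes of the other 4 lists, where 15.4% of all genes passed. DESeq2 called 5.78% of all genes in obesity-resistant against control libraries. Among them were 12 of the heat shock genes, Mafg and Ddi2, all higher, and Psme1, Psme2, Psmf1 and Ufd1, all lower. It called no gene of the lists in obesity-prone against obesity-resistant libraries, where 3.11% of all genes passed.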

How the data were processed

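RNA sequencing of brown adipose tissue gave 10 libraries in 3 groups. Per the labels' protocols, the authors aligned clean reads to a gene set with Bowtie2 2.2.5 and computed expression with RSEM 1.2.12. The submitters' processing notes give GRCm38.p6 as the build and list HISAT2 2.0.4. The deposited table gives an expected count, which is not normalised, and an FPKM value per gene and library; 6 columns of the authors' group means were not used. Strand setting and annotation release are not given in the sources used here.

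Expected counts were rounded and tested in edgeR 4.0.16 (R 4.3.3) with TMM factors and filterByExpr (minimum count 10). A robust quasi-likelihood model with a mean for each of the 3 groups was fitted to the 10 libraries, which left 7 residual degrees of freedom, with Benjamini-Hochberg adjustment over the 19676 genes left. Total counts of at least 35583997 limit precision for genes with few counts. Two-sided p-values come from that fit. FPKM served to compare levels between genes.

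The genes, their roles and the pathway and marker lists were chosen with earlier results of these data known. Named were genes past the threshold or the 5 lowest p-values, the catalytic genes, Psmd14, Nfe2l1, the immunoproteasome genes and the 3 lowest p-values among called genes of each pathway list. Paaf1 and Wdnm1-like were not found by name. The result of 1 gene of the ubiquitin list is not reported here.

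Replicates of a group differed well beyond sampling noise. Deviations of same-numbered obesity-resistant and control libraries correlated at 0.15, 0.12 and 0.19. Those of obesity-prone libraries with either group ran from -0.15 to 0.21. Differently numbered libraries were not compared, so these values cannot show whether the replicate numbers pair libraries. Alternatives were DESeq2 1.42.0, RLE, upper-quartile and no scaling factors, no filter and a minimum of 1 CPM in 3 libraries, fits of only 2 groups, the replicate number as a block, limma 3.58.1 on log2(FPKM + 0.5), with 0.1 or 1 in place of 0.5, and leaving out libraries.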

Additional observations from a re-analysis of the deposited data

Results flagged for a closer look

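Among the 46 genes whose 4 control values were checked for a library far from the others (the 34 tested proteasome genes and the genes named beside them), Hspb8 stood out: control replicate 4 had 65.1 CPM, against 33.4, 37.0 and 35.1 CPM in control replicates 1, 2 and 3. The gap to the nearest library was 0.887 of the group's range, above Dixon's critical value for 4 samples. Chance gives such a gap in about 1 of 20 groups, so 1 such gene among 46 is not more than chance would give. No proteasome gene had such a gap, and the groups of 3 libraries were not checked.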

How the results depend on the processing

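The median log2 fold change of the proteasome genes stayed below 0 in all 23 alternatives in obesity-prone against control libraries (-0.21 to -0.042, the highest without obesity-prone replicate 3 and control replicate 4) and in obesity-resistant against control libraries (-0.17 to -0.068). In obesity-prone against obesity-resistant libraries it was -0.085 to 0.049 with 1 library left out and 0.043 without those 2 libraries. The depth and the number of libraries limit what could be called: the cause of the moves below was not tested.

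In obesity-prone against control libraries, 3 proteasome genes passed in the fit reported, 8 by DESeq2, 5 with upper-quartile factors or at least 1 CPM in 3 libraries, 1 without a filter, 7 without obesity-prone replicate 3 and control replicate 4, 0 with total counts only, with only the 2 groups fitted and in all 4 limma fits, and 0 to 5 with 1 library left out. Of all genes, 1377 passed, 3030 by DESeq2, 66 with only the 2 groups, 325 by limma without a filter, 2635 without the 2 libraries and 76 to 3040 with 1 left out. In obesity-resistant against control libraries 0 proteasome genes passed, 2 by DESeq2, 5 without the 2 libraries (Psma4, Psma6, Psmb1 and Psmd6 lower, Psmc2 higher) and 0 to 1 with 1 left out. Of all genes 28 passed, 1084 by DESeq2, 70 with total counts only, 76 without a filter, 68 with at least 1 CPM in 3 libraries, 391 with only the 2 groups, 8 by limma without a filter, 2212 without the 2 libraries and 3 to 864 with 1 left out. In obesity-prone against obesity-resistant libraries 544 of all genes passed by DESeq2 and 0 to 871 with 1 library left out, and 0 in the fit reported.

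The replicate number as a block gave 382 genes in obesity-resistant against control libraries and changed no call of a proteasome gene there. In obesity-prone against control libraries the block gave 3 proteasome genes (Psma6 and Psmb1 lower, Psmd13 higher). Log2 fold changes in that fit were 0.011 for Psmb5, 0.039 for Psmb9 and 0.11 for Psmb10.

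Of the 17 regulatory genes, 12 were below 0 in obesity-prone over control libraries, but 10 with total counts or on FPKM, 9 without obesity-prone replicate 3 and 7 without the 2 libraries. Among the genes whose values are followed one by one, Psmb5, Psmb9 and Psmb10 changed direction. In obesity-prone over control libraries Psmb5 (-0.031) came to 0.040 with total counts, 0.032 by limma with 0.5 or 1 added and 0.033 with 0.1, 0.16 without the 2 libraries and -0.15 to 0.11 with 1 left out. Psmb10 (-0.0064) came to 0.068 with total counts, 0.0020 with at least 1 CPM in 3 libraries, 0.060 by limma with 0.5 added, 0.062 with 0.1 and 0.058 with 1, 0.03 without the 2 libraries and -0.12 to 0.17 with 1 left out. Psmb9 (-0.18) came to 0.09 without the 2 libraries and -0.86 to 0.19 with 1 left out. In obesity-resistant over control libraries Psmb5 ranged from -0.055 to 0.12 with 1 left out. In obesity-prone over obesity-resistant libraries, with 1 left out, Psmb5 ranged from -0.20 to 0.061 and Psmb9 (0.38) from -0.30 to 0.75, and Psmb5 was 0.05 without the 2 libraries.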
